A study of Homo sapiens with 2 samples.

Results

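Heat shock proteins and J-domain cochaperones were examined in SF-539 cells, a human glioblastoma (GBM) cell line, with and without knockdown of FKBP9, a prolyl isomerase of the endoplasmic reticulum (ER). Genes were taken by name from the protein-coding rows of the deposited table: the families DNAJA, DNAJB, DNAJC, HSPA, HSPB, HSPH, HSPD, HSPE and HSP90A, with the BAG cochaperones BAG1, BAG2 and BAG3 and the heat shock factors HSF1 and HSF2. The ER Hsp70 HSPA5 and the binding proteins HSPBP1 and HSPBAP1 were not included. This gave 79 of 58735 gene rows. They stand for 78 symbols, because HSPA14 was listed under 2 gene identifiers. Both groups were brain-derived SF-539 cells infected with a pGIPZ lentivirus and selected with puromycin. The shControl cells were made with control hairpins and the shFKBP9 cells with hairpins against FKBP9. The study describes several distinct hairpins against FKBP9, and its text does not state which the sequenced cells carried. Both lines are described as stable clones, with no number of clones stated. There was 1 library per condition, so no value has a replicate check, and a difference below is one between those libraries.

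Heat shock proteins are chaperones that bind unfolded or partly folded proteins. Hsp70 proteins bind and release their clients in an ATP cycle. J-domain proteins deliver clients and stimulate the ATPase, whereas Hsp110 and BAG proteins act as nucleotide exchange factors. Hsp90 acts on later folding steps of kinases and receptors, Hsp60 with Hsp10 forms a folding chamber in mitochondria, and small heat shock proteins hold unfolded proteins without ATP. HSF1 is the main transcription factor of the cytosolic heat shock response. The ER has a set of J-proteins of its own that work with HSPA5, and the unfolded protein response (UPR) of the ER controls several of them through other factors.

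Levels were measured by RNA-Seq as FPKM, the fragments of a gene divided by its length in kilobases and scaled by library size. In total, 18116873 fragments lay on genes in shControl and 17158514 in shFKBP9. The heat shock genes took 1.03% of them in shControl (95% interval 1.02 to 1.03) and 1.04% in shFKBP9 (1.03 to 1.04). Intervals throughout are exact Clopper-Pearson intervals of fragment counts and cover counting error only. FKBP9, the targeted gene, was at 49.8 FPKM in shControl and 4.68 in shFKBP9 (log2 ratio -3.38). The labels describe epithelial glioma cells. Of the markers of that description, VIM was at 277 FPKM in shControl and 295 in shFKBP9, and NES and KRT8 were between 1.09 and 2.36, whereas GFAP, OLIG2, SOX2, S100B, EPCAM, CDH1 and KRT18 were below 1 FPKM in both libraries. The leukocyte markers summed to at most 0.353 FPKM and the endothelial markers to at most 0.120 FPKM in a library. The markers of the glial and neural list summed to 280.2 FPKM in shControl and 298 in shFKBP9, nearly all of it VIM, and their part in the differences below was not tested.

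HSF1 binds heat shock elements, arrays of inverted GAA units, so the start regions of the genes were searched for them. RefSeq start windows of GRCh38.p14, from 250 bases before to 50 bases after each start site, were found for 68 of the 78 symbols and made up 88 windows. A run of 3 units, spelled GAA, 2 free bases, TTC, 2 free bases and GAA, or the same beginning with TTC, lay in 7 member windows (7.95%) and in 0.49% of all 35116 windows. These windows belonged to DNAJA1, DNAJB6, HSP90AA1, HSP90AB1, HSPA6, HSPA8 and HSPD1. The stretches of 4 of these genes are shown because they encode the main Hsp90, Hsp70 and Hsp60 proteins, whose levels are described below. They read 5′ to 3′ along the strand of the gene, capitals mark the 3 units, and coordinates are those of GRCh38.p14.
HSP90AA1 (chr14:102087112-102087140, minus strand): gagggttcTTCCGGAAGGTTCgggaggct
HSP90AB1 (chr6:44247823-44247851, plus strand): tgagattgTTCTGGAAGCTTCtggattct
HSPA8 (chr11:123062171-123062199, minus strand): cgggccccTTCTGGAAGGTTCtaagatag
HSPD1 (chr2:197500060-197500088, minus strand): attttctgGAAAGTTCTGGAAccgagcga
With the start site counted as 0, the capitals begin at position -88 for HSP90AA1, -112 for HSP90AB1, -55 for HSPA8 and -240 for HSPD1. A second run of 3 units, not printed here, was found in the windows of HSP90AB1, HSPA8 and HSPD1, and that of HSPD1 overlaps the one shown.

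A shorter run of 2 units, spelled GAANNTTC or TTCNNGAA, occurred in 27.3% of the member windows and in 13.5% of all windows. The longer run always contains the shorter one. The inducible Hsp70 genes HSPA1A and HSPA1B each had the shorter run, at positions -106 and -105, in nearly identical surroundings, which are shown because fragments of these neighbouring genes are hard to assign.
HSPA1A (chr6:31815426-31815455, plus strand): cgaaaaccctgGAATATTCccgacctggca
HSPA1B (chr6:31827622-31827651, plus strand): cgaaacccctgGAATATTCccgacctggca
The site of HSPA1A is also that of HSPA1L, which is read from the opposite strand. For the ER, the element TGACGTGG of the UPR was found, on either strand, in 0.729% of all windows and in the window of 1 member, DNAJC10, an ER disulfide reductase with a J domain. Its stretch holds the element in reverse, in capitals.
DNAJC10 (chr2:182716121-182716150, plus strand): cgcgcacaccgCCACGTCAacctaaaccta
The ER stress element, spelled CCAAT, 9 free bases and CCACG, and its second form, ATTGG, 1 free base and CCACG, were in 0 of the 88 member windows and in 0.0769% and 0.0541% of all windows, rates at which few or no matches in 88 windows would be seen. TGATGNAA, an amino acid response element, was in the windows of DNAJA4 and HSPA4L (2.27% of member windows, 3.62% of all windows), which were both below 1 FPKM. A match describes letters in these windows alone and says nothing of which factor was bound.

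Most of the heat shock genes differed little between the libraries. In bulk RNA, fewer cells with a transcript and less of it per cell cannot be told apart. Of the 79, 61 reached 1 FPKM in at least 1 library, 18 did not, and 5 of those 18 had no fragment in either. The FPKM of all members summed to 2758 in shControl and 2765 in shFKBP9, which differ by 0.00 on the log2 scale. Changes are given as log2 ratios of shFKBP9 to shControl with 0.1 added to each FPKM. The median over the 61 was 0.01, beside -0.02 over 10346 protein-coding genes at the same minimum. Of the 61, 33 were higher and 28 lower by any amount, beside 46.3% and 53.7% of protein-coding genes, and 38 lay within 10% of their shControl level. None (0) passed 2-fold in either direction, where the background was 0.213% of protein-coding genes higher and 0.193% lower. A log2 ratio of more than 0.32 in size, the smaller threshold used here, was found for 4 genes that were higher, HSPB7, DNAJB9, HSF2 and DNAJC15, and for 2 that were lower, HSPA1B and HSPA1L. The share of protein-coding genes past that threshold was 5.87% higher and 6.94% lower, so the 6 of 61 are near that background.

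**Figure D1:**
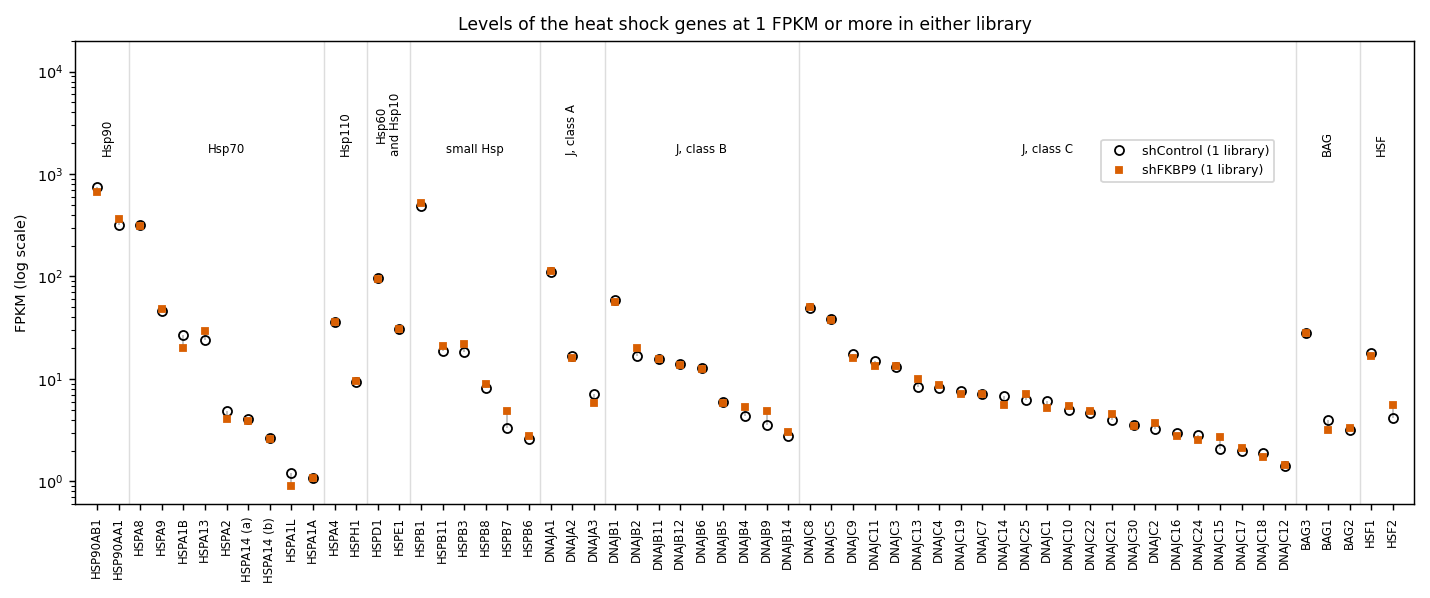
Level in FPKM (log scale) of the 61 genes at 1 FPKM or more in either library, ordered by role and, within a role, by the shControl level; open circles are the shControl library, filled squares the shFKBP9 library. The symbols lie close together for most genes, from HSP90AB1 at 751 and 674 FPKM down to HSPA1L at 1.22 and 0.893 and HSPA1A at 1.07 and 1.08. HSPA14 (a) and (b) are the 2 identifiers of that gene.

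An exact binomial test, two-sided and with Benjamini-Hochberg adjustment over 17105 genes with at least 10 fragments, was used to ask which differences exceeded counting error. It compares those libraries, not the conditions. Of the 69 heat shock genes tested, 11 were higher and 6 lower at an adjusted p under 0.05, and the background was 12.3% of protein-coding genes higher and 14.5% lower (10.0% and 11.6% of all genes). The test sees smaller differences in genes with more fragments. Among genes with at least 1000 fragments in both libraries together, 6 of 33 members (18.2%) were higher, beside 19.0% of protein-coding genes, and 3 of 33 (9.09%) were lower, beside 22.9%. When a spread between replicate libraries was assumed, with a dispersion of 0.01, 0 members were called in either direction. At that setting 29 of all 17105 genes tested were called higher and 21 lower, so the 0 does not set the members apart. Below, a gene is said to be called when it passed the exact binomial test.

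**Figure D2:**
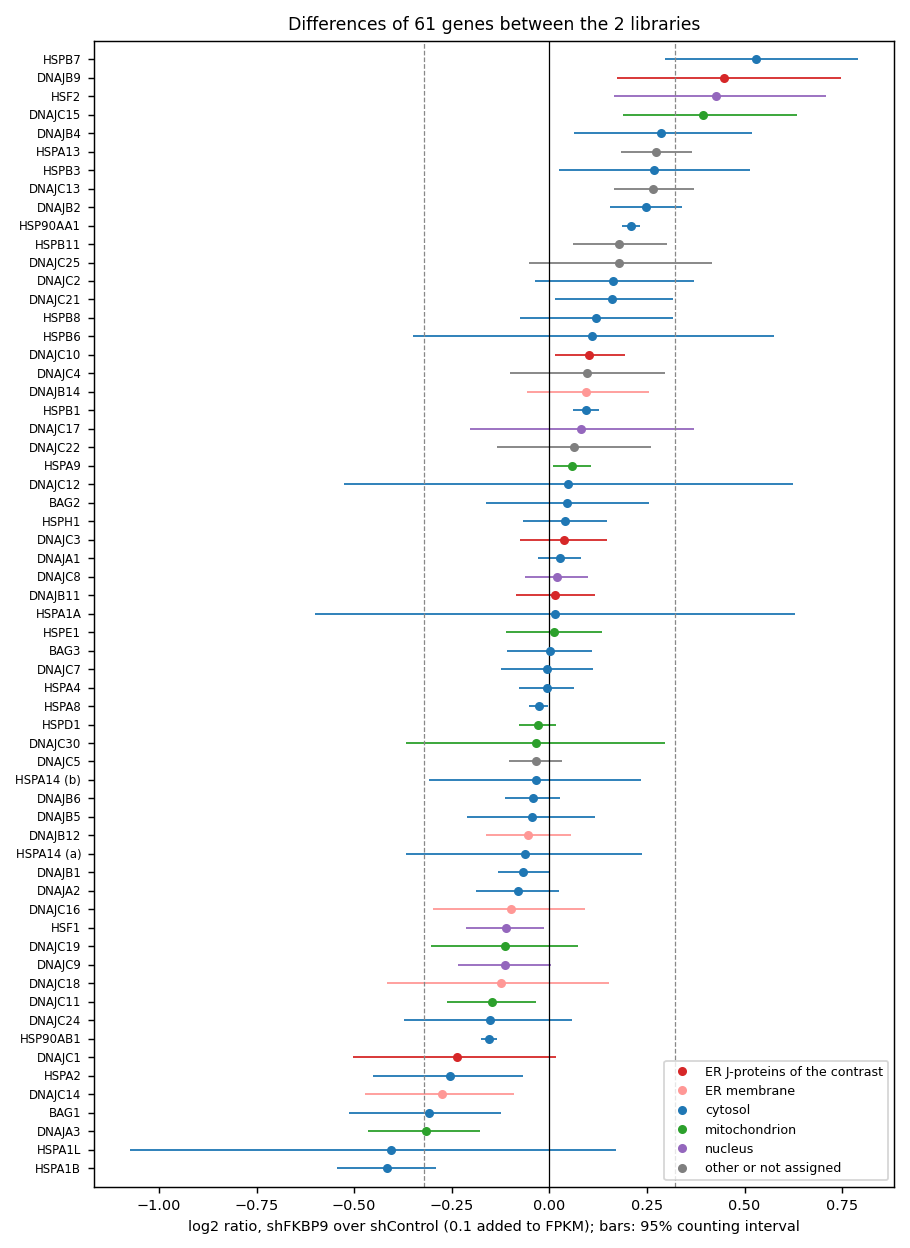
Log2 ratio of shFKBP9 to shControl for the 61 genes at 1 FPKM or more in either library, coloured by the compartment of the encoded protein; bars are 95% counting intervals and dashed lines mark 0.32 in either direction. HSPB7 is at the top at 0.53 and HSPA1B at the bottom at -0.42, with most genes near 0.

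The 5 J-proteins of the ER that assist HSPA5 and the cytosolic members both centred near 0. The ER median log2 ratio was 0.04, with 4 genes higher and 1 lower, and the median of the 31 cytosolic members at 1 FPKM or more was 0.00, with 16 higher and 15 lower. Genes are not replicates, so the contrast was not tested. DNAJB9 (ERdj4), which takes part in ER-associated degradation and in restraining IRE1, had the highest ratio of the 5 and was the 1 of them that was called, beside 12.3% of protein-coding genes called higher. Its 181 fragments gave 3.52 FPKM in shControl and its 236 fragments 4.85 in shFKBP9, a log2 ratio of 0.45 (95% interval 0.17 to 0.75; adjusted p = 0.00818 in the exact binomial test). DNAJB9 lies on chromosome 7 of hg38 from 108569568 to 108574850 on the plus strand, and its ends overlap THAP5 and PNPLA8 on the opposite strand by 183 and 99 bases. THAP5 went from 314 to 401 fragments and PNPLA8 from 529 to 504. Because the counting is not stated to use strand, reads in the overlaps cannot be told apart.

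The most abundant ER J-protein mRNAs were those of DNAJB11 (ERdj3), a soluble cochaperone of HSPA5, and of DNAJC3 (p58IPK), which also inhibits eIF2α kinases. DNAJB11 had 15.6 FPKM in shControl and 15.8 in shFKBP9 (log2 ratio 0.01, -0.09 to 0.12). DNAJC3 had 13.1 and 13.4 (0.04, -0.07 to 0.15). For both, the counting interval holds differences of at most about 0.15 on the log2 scale. DNAJC10 had 5.02 and 5.39 FPKM (0.10, 0.01 to 0.19). DNAJC1 (ERdj1), a membrane J-protein that contacts ribosomes, had 6.14 and 5.19 FPKM (-0.24, -0.50 to 0.02). Neither DNAJC10 nor DNAJC1 was called, with adjusted p of 0.0833 and 0.195 in the exact binomial test. As DNAJB9 was higher and DNAJC1 lower, the share of DNAJB9 in the summed FPKM of the 5 was 8.12% in shControl and 10.9% in shFKBP9, while that of DNAJC1 was 14.2% and 11.6%. The summed level itself was 43.4 and 44.6 FPKM.

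A further 5 J-proteins are anchored in the ER membrane with their J domain facing the cytosol or of a less studied topology, and 4 of these were lower in shFKBP9 (median -0.10), where 53.7% of protein-coding genes were lower by any amount. DNAJC14, which acts in the export of receptors from the ER, had 6.79 FPKM in shControl and 5.59 in shFKBP9 (-0.28, -0.47 to -0.09) and was the only one of the 5 that was called, beside 14.5% of protein-coding genes called lower. It overlaps ORMDL2 and TMEM198B on the opposite strand. DNAJB12, which works with cytosolic Hsp70 in ER-associated degradation, had 14.1 and 13.6 FPKM (-0.05), and its relative DNAJB14 had 2.80 and 3.002 (0.10). DNAJC16 and DNAJC18 lay at -0.10 and -0.12, with intervals that include 0.

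**Figure D3:**
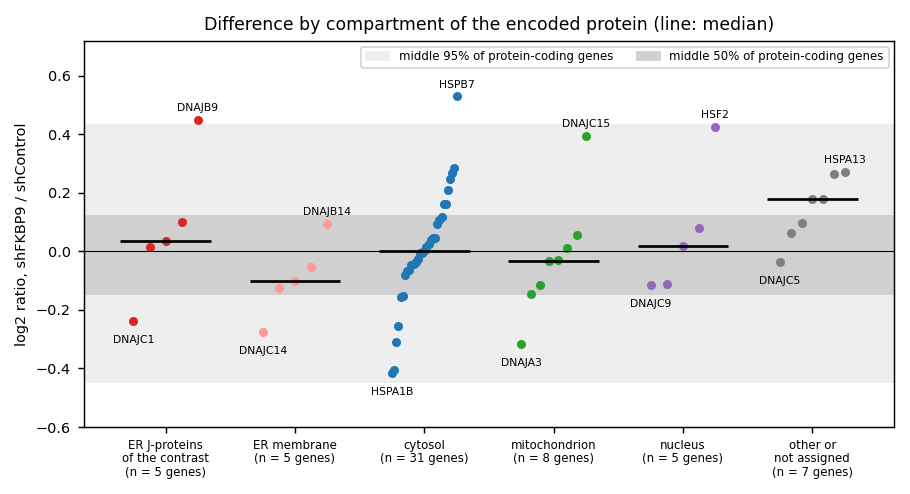
Log2 ratio of shFKBP9 to shControl of each gene at 1 FPKM or more, by compartment of the encoded protein; points are genes, ordered by value within a compartment, black lines are medians, and grey bands hold the middle 50% and 95% of 10346 protein-coding genes. Medians run from -0.10 for the ER membrane to 0.18 for genes of other or unassigned place, and DNAJB9, HSPB7 and HSPA1B are the extremes of their compartments.

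Hsp90 was the family with the most mRNA, and its 2 cytosolic genes differed in opposite directions. HSP90AB1, the constitutive isoform, was at 751 FPKM in shControl and 674 in shFKBP9, from 40520 and 34501 fragments. Its log2 ratio was -0.16 (-0.18 to -0.13; adjusted p = 1.36e-45 in the exact binomial test). HSP90AA1, the stress-inducible isoform, was at 316 and 366 FPKM, from 30029 and 32932 fragments, a log2 ratio of 0.21 (0.19 to 0.23; adjusted p = 7.28e-73 in the exact binomial test). Thus HSP90AA1 made up 29.6% of the Hsp90 FPKM in shControl and 35.1% in shFKBP9, and the sum of both went from 1067 to 1040 FPKM (-0.04). Both genes have runs of 3 heat shock units in their start windows, shown above. Of their 100-base windows, 2.24% for HSP90AA1 and 1.67% for HSP90AB1 are also found in a listed pseudogene, and summing the fragments of the pseudogenes left the ratios at 0.21 and -0.16. HSP90AB1 lies on chromosome 6 from 44246166 to 44253888 (plus strand) and HSP90AA1 on chromosome 14 from 102080738 to 102139699 (minus strand) of hg38.

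In the Hsp70 family, constitutive HSPA8 was nearly level and the inducible HSPA1B was lower. HSPA8, the main cytosolic Hsp70 of unstressed cells, was at 316 FPKM in shControl and 310.4 in shFKBP9 (-0.03, -0.05 to -0.0028) and was not called (adjusted p = 0.134 in the exact binomial test). HSPA1B was at 26.7 and 20.0 FPKM, from 1221 and 867 fragments, a log2 ratio of -0.42 (-0.54 to -0.29; adjusted p = 2.39e-09 in the exact binomial test). HSPA1A, its near-identical neighbour, was at 1.07 and 1.08 FPKM, from 48 and 46 fragments.

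These 2 genes encode nearly the same protein and share sequence. HSPA1B lies on chromosome 6 from 31827735 to 31830255 and HSPA1A from 31815464 to 31817946, both on the plus strand of hg38. Of the 100-base windows of HSPA1A transcripts, 72.4% are also in HSPA1B, and of those of HSPA1B 68.9% are in HSPA1A, so how fragments were split between them is uncertain. HSPA1B held 96.2% of the summed FPKM of the pair in shControl and 94.9% in shFKBP9. With the fragments of the pair summed, 1269 and 913, the log2 ratio was -0.40 (-0.52 to -0.27). The lower level thus does not depend on how the counted fragments were split. Any fragments left uncounted because they match both genes are not in this sum.

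HSPA6, an Hsp70 that is nearly silent without stress, was read by 12 and 10 fragments (0.280 and 0.246 FPKM), and at this depth no difference was detectable (-0.13, -1.56 to 1.15). HSPA1L, a germ cell form next to HSPA1A, had 56 and 39 fragments (1.22 and 0.893 FPKM). Although its log2 ratio of -0.41 passed the smaller threshold, the interval ran from -1.07 to 0.17 and the gene was not called. HSPA2, also known from germ cells, was at 4.88 and 4.07 FPKM and was called lower (-0.25, -0.45 to -0.07; adjusted p = 0.0365 in the exact binomial test). HSPA13, a microsome-associated Hsp70 with an ATPase domain but no client-binding domain of the usual kind, was at 24.0 and 29.1 FPKM and was called higher (0.27, 0.18 to 0.37; adjusted p = 6.34e-08 in the exact binomial test). Both identifiers of HSPA14, a ribosome-associated Hsp70, had negative ratios of small size, -0.06 and -0.04. They overlap each other on the same strand by 8855 bases, so their fragments may be split.

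Mitochondrial chaperones were close to level. HSPA9 (mortalin), the mitochondrial Hsp70, was at 46.3 FPKM in shControl and 48.2 in shFKBP9 (0.06, 0.01 to 0.11). HSPD1 (Hsp60) was at 97.5 and 95.5 FPKM (-0.03, -0.08 to 0.02), and HSPE1 (Hsp10) at 30.8 and 31.0 (0.01, -0.11 to 0.13). HSPD1 and HSPE1 are divergent neighbours on chromosome 2 whose annotated spans overlap by 3464 bases on opposite strands. None of these 3 genes was called.

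The mitochondrial J-proteins held the larger differences of that compartment, in both directions. DNAJA3 (Tid1), which assists HSPA9 in the matrix, was at 7.20 and 5.77 FPKM (-0.32, -0.46 to -0.18; adjusted p = 1.23e-04 in the exact binomial test). DNAJC15, a J-protein of the inner membrane at the import motor, was at 2.06 and 2.74 FPKM, from 300 and 378 fragments (0.39, 0.19 to 0.63; adjusted p = 0.00193 in the exact binomial test). Its relative DNAJC19 was at 7.67 and 7.08 FPKM (-0.11, -0.30 to 0.07). DNAJC11 and DNAJC30 were at -0.15 and -0.03, and neither was called. The median of the 8 mitochondrial genes was -0.03.

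The Hsp110 exchange factors were level. HSPA4 was at 36.1 FPKM in shControl and 35.9 in shFKBP9 (-0.01, -0.08 to 0.06), and HSPH1, which is induced by heat, at 9.29 and 9.55 (0.04, -0.07 to 0.15). HSPA4L was below 1 FPKM in both libraries, with 102 and 98 fragments.

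Small heat shock proteins were the role group in which all members at 1 FPKM or more were higher in shFKBP9, 6 of 6 with a median of 0.15, where 46.3% of protein-coding genes were higher by any amount. Whether the group departs from that background was not tested. Of the 7 small heat shock genes tested, 3 were called higher, beside 12.3% of protein-coding genes. At an assumed dispersion of 0.01, 0 were called, where 29 of all 17105 genes tested were called higher and 21 lower. HSPB1 (Hsp27) made up most of the group. It was at 490.5 FPKM in shControl and 524 in shFKBP9, from 14511 and 14692 fragments (0.09, 0.06 to 0.13; adjusted p = 2.69e-07 in the exact binomial test). HSPB7, a small Hsp best known from heart muscle, had the highest ratio of all 61 genes. It was at 3.33 and 4.86 FPKM, from 236 and 326 fragments (0.53, 0.30 to 0.79; adjusted p = 1.15e-04 in the exact binomial test). HSPB7 lies on chromosome 1 from 16014028 to 16019594 (minus strand) of hg38.

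HSPB11 (IFT25), which carries the family name but works in transport within cilia, was at 18.6 and 21.0 FPKM and was called higher (0.18, 0.06 to 0.30). HSPB3 was at 18.3 and 22.1 FPKM (0.27, 0.02 to 0.51), from 260 and 297 fragments, and was not called (adjusted p = 0.102 in the exact binomial test). HSPB8, which works with BAG3 in chaperone-assisted autophagy, was at 8.21 and 8.92 FPKM (0.12, -0.08 to 0.32), and HSPB6 at 2.57 and 2.78 (0.11, -0.35 to 0.58). For HSPB6 and HSPB8 the intervals include 0. HSPB2 and HSPB9 had at most 6 fragments in a library.

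**Figure D4:**
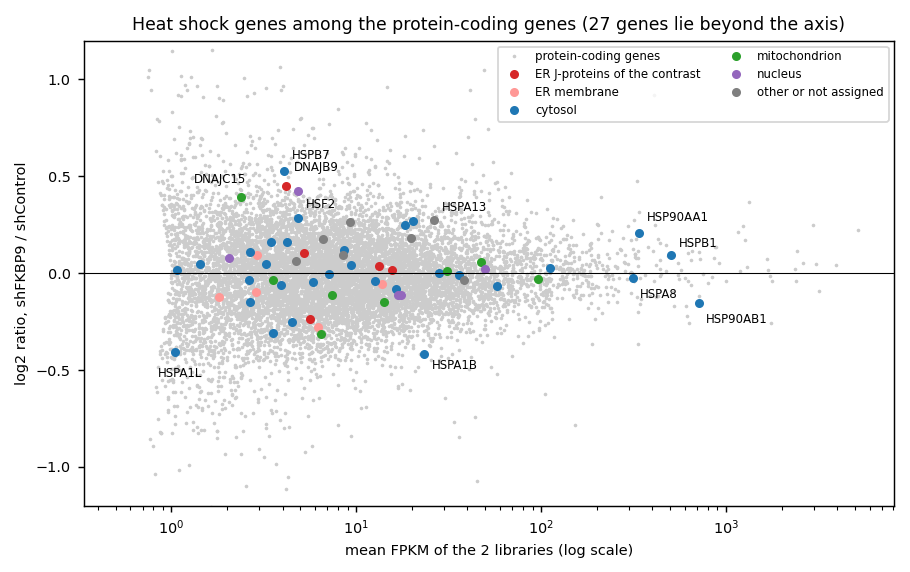
Log2 ratio of shFKBP9 to shControl against the mean FPKM of both libraries (log scale), with the heat shock genes coloured by compartment over the protein-coding genes at 1 FPKM or more in grey; 27 of 10346 genes lie beyond the axis of -1.2 to 1.2. HSP90AA1 at 0.21 and HSP90AB1 at -0.16 stand among the most abundant genes, and HSPB7, DNAJB9, HSF2 and DNAJC15 lie at low levels where the grey points spread widely.

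Cytosolic J-proteins, which pair with HSPA8 and HSPA1B, were divided evenly. Of the 12 at 1 FPKM or more, 6 were higher and 6 lower, with a median of 0.01. The 6 lower include DNAJB6, which was at 0.15 with its copies summed, so the even split depends on how that gene is counted. The heat-inducible members stayed under the smaller threshold. DNAJA1 (Hsp40 of class A) was at 111 FPKM in shControl and 113 in shFKBP9 (0.03, -0.03 to 0.08). DNAJB1, the classical heat-inducible Hsp40, was at 58.8 and 56.1 FPKM (-0.07, -0.13 to -0.00072) and was not called. The annotated span of DNAJB1 overlaps TECR on the opposite strand by 12686 bases, and TECR had 2285 and 1759 fragments. DNAJA2 was at 16.8 and 15.9 FPKM (-0.08).

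Of the 15 cytosolic J-proteins tested, 2 were called higher and 0 lower, beside 12.3% of protein-coding genes called higher and 14.5% called lower. DNAJB2, a J-protein with ubiquitin interaction motifs that is abundant in neurons, was at 16.8 and 19.9 FPKM (0.25, 0.16 to 0.34; adjusted p = 1.83e-06 in the exact binomial test). The study placed DNAJB2 among genes of ER stress that it chose on these libraries, so its direction is not independent evidence. DNAJB4, a relative of DNAJB1, was at 4.37 and 5.34 FPKM (0.29, 0.06 to 0.52; adjusted p = 0.0486 in the exact binomial test). DNAJB6, which suppresses polyglutamine aggregation, was at 12.9 and 12.5 FPKM (-0.04, -0.11 to 0.03), a value that depends on how a copy is counted. DNAJC7, which binds Hsp70 and Hsp90 through its TPR repeats, was at 7.15 and 7.12 FPKM (-0.01, -0.12 to 0.11).

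Of the J-proteins not yet described, DNAJC13 (RME-8), which acts on endosomes, was at 8.36 FPKM in shControl and 10.1 in shFKBP9 and was called higher (0.27, 0.17 to 0.37; adjusted p = 3.59e-06 in the exact binomial test). DNAJC5, the cysteine string protein of secretory vesicles, was at 38.8 and 37.9 FPKM (-0.03). DNAJC8, a splicing factor, was at 49.2 and 49.9 (0.02), and DNAJC9, a histone chaperone, at 17.5 and 16.2 (-0.11, -0.23 to 0.0032). The cytosolic DNAJC2 and DNAJC21, which work at ribosomes and in ribosome assembly, both lay at 0.16, and neither was called. The members not yet named at 1 FPKM or more, DNAJB5, DNAJC4, DNAJC12, DNAJC17, DNAJC22, DNAJC24 and DNAJC25, lay between -0.15 (DNAJC24) and 0.18 (DNAJC25), and 0 of these 7 were called. The nuclear members, heat shock factors included, had a median of 0.02.

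BAG1, an exchange factor that links Hsp70 to the proteasome, was lower. It was at 3.95 FPKM in shControl and 3.17 in shFKBP9, from 506 and 385 fragments (-0.31, -0.51 to -0.12; adjusted p = 0.00863 in the exact binomial test). BAG3, a target of HSF1, was at 28.1 and 28.2 FPKM (0.00, -0.11 to 0.11), and BAG2, an inhibitor of the ubiquitin ligase STUB1, at 3.19 and 3.29 (0.04, -0.16 to 0.26). BAG3 made up 79.8% of the FPKM of the 3 in shControl and 81.3% in shFKBP9.

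Of the heat shock factors, HSF2 was higher and HSF1 was slightly lower. HSF2 was at 4.13 FPKM in shControl and 5.58 in shFKBP9, from 202 and 259 fragments (0.43, 0.16 to 0.71; adjusted p = 0.00864 in the exact binomial test). HSF1 was at 18.1 and 16.7 FPKM (-0.11, -0.21 to -0.01) and was not called (adjusted p = 0.105 in the exact binomial test). The level of a factor's mRNA does not measure its activity. Of the 7 genes with 3 heat shock units in a start window, 6 were at 1 FPKM or more. They had log2 ratios from -0.16 (HSP90AB1) to 0.21 (HSP90AA1), with 0 past the smaller threshold and a median of -0.03. Of the 6, 2 were higher and 4 lower, where 46.3% of protein-coding genes were higher and 53.7% lower. The 4 lower include DNAJB6, which was at -0.04 and, with its copies summed, at 0.15. The median of the 48 other genes with a window and at 1 FPKM or more was 0.03. These 48 include heat-inducible genes that have only the shorter run, such as HSPA1B and DNAJB1. They are therefore not a group without heat shock elements. The 18 genes with the shorter run of 2 units include the 6 with 3 units. They had 11 higher and 7 lower, DNAJB6 again counted as lower, and a median of 0.04. Of the 18, 1 higher and 2 lower were past the smaller threshold.

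Copies of the genes could take fragments from them, so these were counted too. Pseudogenes and other copies made up 135 rows for 27 members, and 44 of the rows had a fragment. For DNAJB6 the copies mattered. Its processed pseudogene AP001000.1 on chromosome 11 went from 74 to 537 fragments, and 11.2% of the 100-base windows of DNAJB6 are also in that copy. Summed with its copies, DNAJB6 went from 3578 to 3763 fragments, a log2 ratio of 0.15 (0.08 to 0.22) in place of -0.04. Apart from the HSPA1A and HSPA1B pair, the copies held at most 8.36% of the summed fragments of a member at 1 FPKM or more, which is the value for DNAJB6.

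Partners outside the gene families were examined as the setting of these genes. Of 38 partners, 36 were at 1 FPKM or more. Of the 37 tested, 7 were called higher and 13 lower, beside 12.3% and 14.5% of protein-coding genes, or 19.0% and 22.9% of those with at least 1000 fragments. The cytosolic chaperonin, a folding chamber for actin and tubulin, had a median of -0.14 over its 8 subunits, 5 of which were called lower and 0 higher. All 8 had over 1000 fragments, where 22.9% of protein-coding genes were called lower, and no test set the chaperonin apart from them. CCT4 was the lowest, at 88.6 FPKM in shControl and 75.6 in shFKBP9 (-0.23), and CCT6A the highest at 0.02. Of 13 Hsp90 and Hsp70 cochaperones, BAG6 was the lowest at -0.29 and CHORDC1 the highest at 0.19, and 2 were called higher and 3 lower, near the shares of protein-coding genes given above.

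Among mitochondrial partners, TRAP1, the mitochondrial Hsp90, was the lowest at -0.29 and GRPEL2, an exchange factor of HSPA9, the highest at 0.34. Among J-proteins under other names, SEC63, an ER translocation factor, was the highest at 0.34 and GAK, an auxilin, the lowest at -0.22. ER partners differed in direction. HSPA5, the Hsp70 that the ER J-proteins serve, was at 403 FPKM in shControl and 372 in shFKBP9 (-0.12, -0.14 to -0.09). HSP90B1, the ER Hsp90, was the highest at 0.25 and HYOU1, the ER Hsp110, the lowest at -0.26. The single further heat shock factor on the list, HSF4, was at -0.26 and was not called, and of the crystallins CRYAB had 4 and 6 fragments and CRYAA none.

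The 18 members below 1 FPKM include genes best known from testis or brain, such as DNAJB8 and DNAJC6. DNAJC5B, DNAJC5G, DNAJB8, DNAJB13 and the readthrough gene HSPB2-C11orf52 had 0 fragments in both libraries. A count of 0 allows up to 3 fragments, which for a gene of 1 kilobase is 0.166 FPKM in shControl and 0.175 in shFKBP9. HSPA12A, DNAJC27 and DNAJC6 had between 55 and 118 fragments in a library, and their intervals include 0. DNAJA4, DNAJB7, DNAJC28 and HSPA12B had at most 27 fragments in a library. The readthrough genes DNAJC25-GNG10 and HSPE1-MOB4 had at most 1 fragment in a library.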

How the data were processed

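RNA was extracted from shControl and shFKBP9 SF-539 cells with TRIzol, and libraries were made with a NEBNext Ultra kit (1 per condition). The authors removed adapter, undetermined and low-quality reads, aligned read pairs to hg38 with HISAT2 2.0.5, counted them per gene with featureCounts 1.5.0-p3 and tested with edgeR. The authors deposited FPKM per gene, and 0 further columns of values were present.

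Each FPKM times gene length was a whole multiple of 1 step per library (100.0% of values, tolerance 1e-06 of a step), which gave fragments. Log2 ratios used 0.1 added to FPKM. Genes needed 1 FPKM in either library to be counted. Exact binomial tests set fragments against library totals, and were checked on simulated data. Conditions could not be tested. Copies were compared by transcripts of GENCODE release 44, and start windows came from RefSeq (GRCh38.p14).

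Of HSP90A genes, HSP90AA1 and HSP90AB1 were taken. Named in full are the ER J-proteins, main heat shock genes, BAG and HSF genes, DNAJB2, members past a log2 ratio of 0.32, and the extremes of each partner group; others are given by role. Members and lists were chosen with earlier results of these data known. Alternatives were 1 or 0.01 added, median scaling, TPM, other minimums, copies summed, no readthrough genes, and other tests. Calculations used scipy 1.17.1 and pandas 2.3.3 under Python 3.11.15 with numpy 2.4.6, and figures matplotlib 3.10.9.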

Additional observations from a re-analysis of the deposited data

Results flagged for a closer look

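A pair of gene rows outside the heat shock genes, but named or described after them, had more signal in shFKBP9 than in shControl. AP001000.1, a processed pseudogene of DNAJB6, had a log2 ratio of 2.91 (95% counting interval 2.58 to 3.31), from 74 and 537 fragments. HSF2BP, which encodes a protein that binds HSF2, had a log2 ratio of 1.26 (0.40 to 2.83), from 9 and 25 fragments, and was below 1 FPKM in both libraries. Of 212 such rows, 27 had enough fragments for the exact binomial test. The 2 named are those called and more than 2-fold higher, and rows called lower or by less are not listed. Among all genes, 10.0% were called higher by any amount, a wider criterion that cannot be set against these 2.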

How the results depend on the processing

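No paired analysis was possible because each condition had 1 library. Of 305 alternative values for the 61 genes at 1 FPKM or more, 304 stayed within their counting interval, and the exception was DNAJB6 with its copies, described above. No gene past the smaller threshold of 0.32 or called changed sign. Members past 2-fold stayed at 0 in every alternative. Members higher by the smaller threshold numbered 4 and became 7 without a minimum and 3 with 1 added to FPKM, where DNAJC15 was at 0.29. Members lower by it numbered 2 and became 1 with 1 added to FPKM or with 1 FPKM required in both libraries, 4 with TPM, 4 without a minimum and 3 with copies summed, where HSPA1A takes the value of its pair with HSPA1B. With an assumed dispersion of 0.01 or 0.04 in place of counting error alone, members called were 0 higher and 0 lower, where 29 and 21 of all genes tested were still called at 0.01. The median over all members was 0.01, and with TPM it was -0.0034. TPM moved the median of all genes from -0.02 to -0.04. The ER median lay between 0.02 and 0.05 and the cytosolic median between -0.02 and 0.02 in the alternatives tried. Counts under 50 fragments, such as those of HSPA1A and HSPA6, do not resolve differences of the size seen here.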
